A study of Mus musculus with 8 samples.

Results

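Chromatin loops and topologically associating domains (TADs) of mouse embryonic stem (ES) cells were compared with those of newborn lens fiber cells, to ask which contacts the 2 cell types had in common and which genes lay where they differed. All loops and TADs listed for either cell type were taken, which gave 16141 of the 24146 loops and 6245 of the 8041 TADs in the series. The ES cells were the wild-type v6.5 line, described in the paper as male and of a mixed strain background. They were cultured feeder-free on gelatin with LIF at 24 ng/mL. The fiber cells were microdissected from lenses of CD-1 mice at postnatal day 0.5, with 30 lenses in each replicate, so that a replicate was a pool of animals. Both were crosslinked (2.0% formaldehyde, 10 min) and profiled by Hi-C, with 2 replicates each. The labels give no mutation or further treatment for either. Because the replicates were merged before loops and TADs were called, each cell type had 1 list, so the values given carry neither an error between replicates nor a test of the 2 cell types. The 95% intervals given cover counting error only. The sex of the animals in the lens pools is not stated. Cell type, mouse strain, sex, and culture against tissue cannot be told apart in this design. The identity of the cells was not checked against marker genes because no RNA was analysed here.

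A chromatin loop is a pair of distant sites, its anchors, that touch more often than their surroundings do. Many loops and TAD borders form where cohesin, a ring that extrudes DNA, is halted by the zinc finger protein CTCF, while active genes and their enhancers, and silent genes coated by Polycomb proteins, are also known to gather in space. ES cells can give rise to all cell types of the body and hold many body-plan regulators silent, whereas lens fiber cells stop dividing, fill with crystallins and later lose their nuclei.

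A loop was matched when the other list held a loop whose anchor midpoints were both at most 10 kb away. A loop with no counterpart within 25 kb was called lost when it was in the ES cell list and gained when it was in the fiber list. These words refer only to the lists. A contact missing from a list may still be present below the threshold of the loop caller, and the contact maps themselves were not analysed here. The strength of a loop was its observed count of contacts over the count expected from the surrounding donut of pixels (O/E). Coordinates are those of mm10, counted from 1.

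The genes with the most lost and the most gained loops at their start are shown first by their promoters. Of 8 genes tied for the most lost loops, 4 had a promoter window in the RefSeq set for GRCm38.p6, and of the 5 genes with the most gained loops, 2 did. Each window runs 5′ to 3′ on the strand of the gene from 250 bases before its start to 50 bases after it, and capitals mark CG dinucleotides. Barhl2 (chr5:106458117-106458416, minus strand), Lhx2 (chr2:38339031-38339330, plus strand), Lmx1b (chr2:33641049-33641348, minus strand) and Uncx (chr5:139543648-139543947, plus strand) are homeobox regulators of the embryo. Dcdc5 (chr2:106080749-106081048, plus strand) lies near Pax6, and Mpp6 (chr6:50109991-50110290, plus strand) encodes a membrane scaffold protein. Lhx2 and Mpp6 have a second window, which is not printed.
Barhl2: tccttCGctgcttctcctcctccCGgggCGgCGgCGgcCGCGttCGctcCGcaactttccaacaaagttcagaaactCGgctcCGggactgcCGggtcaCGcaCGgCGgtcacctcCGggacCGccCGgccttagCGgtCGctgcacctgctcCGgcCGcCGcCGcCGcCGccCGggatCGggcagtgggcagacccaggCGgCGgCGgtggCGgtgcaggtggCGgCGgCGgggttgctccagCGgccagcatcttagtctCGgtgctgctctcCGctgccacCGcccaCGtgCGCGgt
Lhx2: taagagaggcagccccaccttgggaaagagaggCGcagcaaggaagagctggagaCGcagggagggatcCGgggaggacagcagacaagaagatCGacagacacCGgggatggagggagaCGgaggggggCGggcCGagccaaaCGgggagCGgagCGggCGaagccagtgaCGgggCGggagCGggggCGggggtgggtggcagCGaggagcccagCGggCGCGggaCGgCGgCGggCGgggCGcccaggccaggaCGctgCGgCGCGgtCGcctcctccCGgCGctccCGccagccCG
Lmx1b: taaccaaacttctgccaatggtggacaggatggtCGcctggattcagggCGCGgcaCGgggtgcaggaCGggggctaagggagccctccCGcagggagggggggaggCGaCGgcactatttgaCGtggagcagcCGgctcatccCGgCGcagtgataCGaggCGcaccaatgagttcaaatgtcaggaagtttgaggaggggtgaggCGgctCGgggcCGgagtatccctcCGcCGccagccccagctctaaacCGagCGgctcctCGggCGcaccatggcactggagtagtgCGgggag
Uncx: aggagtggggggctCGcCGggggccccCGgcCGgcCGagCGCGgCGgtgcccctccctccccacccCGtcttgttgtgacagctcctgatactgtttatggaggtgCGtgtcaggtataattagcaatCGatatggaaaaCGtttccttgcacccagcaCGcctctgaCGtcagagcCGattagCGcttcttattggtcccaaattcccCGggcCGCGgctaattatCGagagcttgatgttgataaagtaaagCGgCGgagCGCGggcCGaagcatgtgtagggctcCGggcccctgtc
Dcdc5: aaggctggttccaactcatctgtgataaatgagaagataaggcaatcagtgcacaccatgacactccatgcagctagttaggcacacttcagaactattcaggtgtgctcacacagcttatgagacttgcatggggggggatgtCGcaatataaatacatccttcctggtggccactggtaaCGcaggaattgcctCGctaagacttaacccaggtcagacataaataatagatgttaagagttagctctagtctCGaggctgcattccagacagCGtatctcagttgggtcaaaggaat
Mpp6: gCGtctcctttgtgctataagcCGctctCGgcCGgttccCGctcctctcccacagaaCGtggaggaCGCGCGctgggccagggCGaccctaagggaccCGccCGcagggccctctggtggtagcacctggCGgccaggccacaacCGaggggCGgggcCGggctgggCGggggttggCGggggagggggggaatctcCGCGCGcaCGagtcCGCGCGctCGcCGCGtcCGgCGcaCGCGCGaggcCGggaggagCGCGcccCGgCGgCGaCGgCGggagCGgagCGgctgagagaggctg

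These windows held 42 CG dinucleotides in Barhl2, 34 in Lhx2, 24 in Lmx1b, 26 in Uncx, 5 in Dcdc5 and 43 in Mpp6, against a median of 7 over all 32851 windows. At least 20 were found in 26.5% of all windows, in 58.9% of the 56 windows of genes with 5 or more lost loops, and in 56.8% of the 37 windows of genes with 3 or more gained loops. CG-rich starts were therefore frequent on both sides of the comparison. The letters CCANNAGNNGGC, a core of the CTCF motif, were searched on both strands and occurred in 2.43% of all windows. Among the 6 printed windows, Mpp6 held 1 match, and no summit of a fiber CTCF peak fell in any of the 6.

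The ES cell list held 8459 loops and the fiber list 7682. In ES cells, 2925 loops were matched (34.6%, 95% Wilson interval 33.6 to 35.6), 956 had a counterpart between 10 and 25 kb away (11.3%) and 4578 were lost (54.1%, 53.1 to 55.2). In fiber cells, 2926 were matched (38.1%, 37.0 to 39.2), 951 were intermediate (12.4%) and 3805 were gained (49.5%, 48.4 to 50.6). About as many loops were thus specific to one list as had a counterpart nearby. Lost loops outnumbered gained loops on 15 of 20 chromosomes. The matched share was lowest on the X chromosome in both lists, at 16.5% of ES cell loops and 23.0% of fiber loops. It reached 45.8% on chromosome 16 in ES cells and 44.7% on chromosome 11 in fiber cells. The part of sex in the X chromosome shares was not tested.

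**Figure D1:**
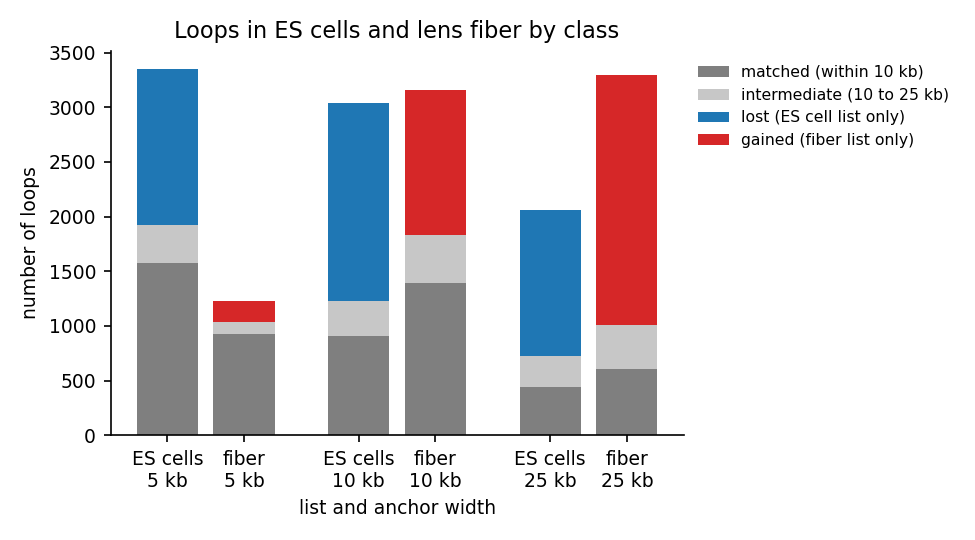
Number of loops (y axis) in ES cells and lens fiber at each anchor width (x axis), stacked as matched, intermediate, and lost or gained; each bar is 1 merged list. Among 5 kb anchors the ES cell list held 1424 lost loops and the fiber list 192 gained loops, while among 25 kb anchors the numbers were 1340 and 2286.

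The width of the anchors, which HiCCUPS sets to 5, 10 or 25 kb according to the resolution at which a loop is found, moved with these classes. Of the ES cell loops, 42.5% of those with 5 kb anchors, 59.6% of those with 10 kb anchors and 64.9% of those with 25 kb anchors were lost. Of the fiber loops, the gained shares were 15.7%, 42.0% and 69.4%. The difference between the lists in anchor width, and its part in these counts, was not tested. Among 10 kb anchors alone, 1814 loops were lost and 1327 were gained.

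Around the limits of the rule, 1013 ES cell loops had their nearest counterpart more than 5 and up to 10 kb away and 387 more than 10 and up to 15 kb away. Between 20 and 25 kb there were 261, of which 67.0% had 25 kb anchors, and between 25 and 30 kb there were 149. The fiber list gave 1014, 377, 263 and 114 loops in the same steps.

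Most unmatched loops still used an anchor known to the other list. Of the lost loops, 51.4% had 1 anchor within 10 kb of a fiber loop anchor, 10.6% had both, and 38.0% had none. The gained loops gave 49.1%, 13.7% and 37.2%. One anchor listed in both cell types and the other in 1 of them was the most frequent arrangement in both classes.

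Loops of lens epithelium, the dividing layer from which fiber cells arise, were used for orientation. A loop within 10 kb was listed there for 79.7% of the matched fiber loops (78.2 to 81.1), for 43.6% of the gained loops (42.1 to 45.2) and for 8.72% of the lost loops (7.93 to 9.57). Within 25 kb, 87.0% of the lost loops but 39.3% of the gained loops had no epithelial counterpart. Restricted to 10 kb anchors, the shares listed within 10 kb were 80.2%, 52.5% and 8.82%, in the same order.

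Gained loops spanned a median of 325 kb (300 to 350), lost loops 210 kb (200 to 220) and matched fiber loops 220 kb (210 to 230). The gained median was above the lost median on 20 of 20 chromosomes. This order did not hold within every anchor width. At 10 kb anchors the medians turned, with 170 kb (160 to 180) for gained and 190 kb (180 to 200) for lost loops, and at 25 kb anchors they were 475 kb (450 to 500) and 525 kb (475 to 550). At 5 kb anchors the gained loops were again longer, with 130 kb against 90.0 kb.

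**Figure D2:**
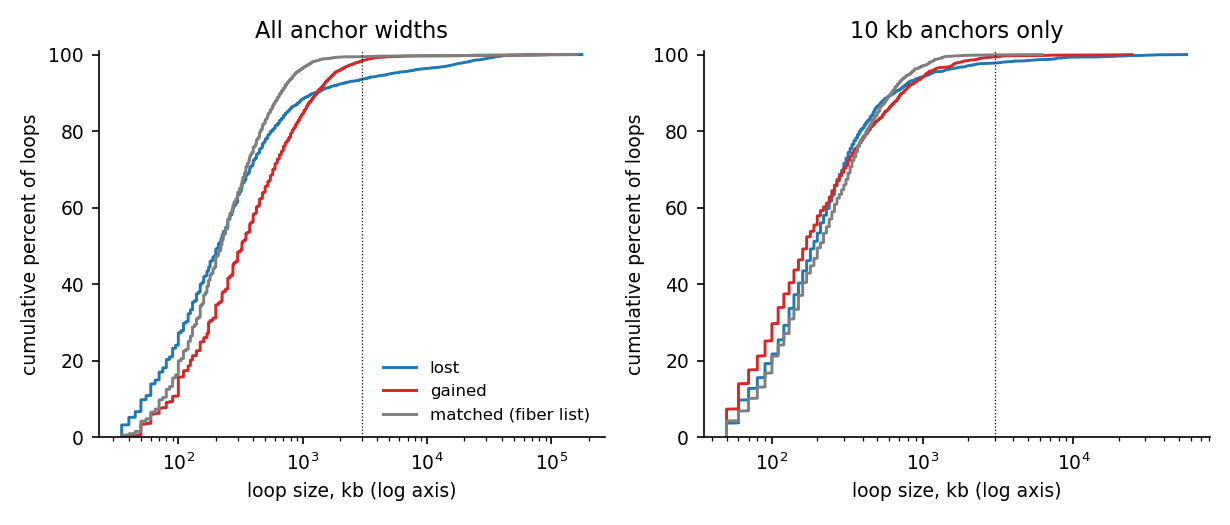
Cumulative percent of loops (y axis) against loop size in kb on a log axis (x axis) for lost, gained and matched loops, at all anchor widths (left) and at 10 kb anchors only (right); the dotted line marks 3 Mb. At all widths the gained curve lies to the right up to about the point where the lost curve flattens into its long tail, and at 10 kb anchors the gained and lost medians are 170 and 190 kb.

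Loops above 3 Mb formed a tail that lay mostly in the lost class. There were 295 lost loops of this length (median 13.2 Mb, found on 20 of 20 chromosomes) and 61 gained ones (median 3.90 Mb), and lost ones were more numerous on every chromosome. Their observed counts were low, with a median of 19 contacts and a range of 13 to 79 in lost loops, so that a single value has a wide counting interval. The median O/E was 10.7 in lost and 3.93 in gained loops of this length. The count expected from the surroundings was below 1 contact in 57 of the 295 lost and 17 of the 61 gained loops, and without these the medians were 9.82 and 3.26. The 5 longest loops of each class all belonged to that low-count group. The longest lost loop joined chr2:5375001-5380000 to chr2:181915001-181920000 over 177 Mb with 14 contacts where 0.00261 was expected, and the longest gained loop spanned 99.0 Mb on chromosome 1 with 13 contacts where 0.307 was expected.

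The long lost loops ended at gene starts far more often than the long gained loops. A protein-coding gene started at 1 or both anchors of 83.7% of the long lost loops and 24.6% of the long gained loops, and at both anchors of 62.0% and 6.56%. A gene from the Hox, other patterning or lens and eye regulator lists started at an anchor of 111 of the 295 long lost loops (37.6%), and at both anchors of 29 (9.83%). No gained loop above 3 Mb had such a gene. Up to 3 Mb the shares were 3.36% of lost and 1.26% of gained loops. Only 2 of the long lost loops (0.678%) were listed within 25 kb in lens epithelium, against 36 of the long gained loops (59.0%).

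Among the 10 lost loops with the highest O/E at a gene start, at least 20 contacts required, 3 had genes of the patterning or lens and eye regulator lists at both anchors and 3 at 1 anchor. Lhx5, which encodes a LIM homeodomain factor of the brain, and Uncx, a regulator of the somites, were joined over 19.1 Mb (chr5:120430001-120440000 and chr5:139540001-139550000) with 28 contacts and an O/E of 26.5 (95% counting interval 17.6 to 38.3). Barhl2, a homeobox gene of neurons, was joined to Lhx5 over 14.0 Mb with 26 contacts and an O/E of 25.7 (16.8 to 37.6). En1 and Lhx4, homeobox genes of the midbrain and pituitary, were joined over 35.1 Mb with 41 contacts and an O/E of 22.2 (15.9 to 30.1). Each of these had no fiber loop and no epithelial loop within 25 kb. The other loops of the 10 included Msx1 with Nkx3-2 (3.94 Mb, O/E 23.0), Meis1 with Otx1 (2.99 Mb, 21.1), Hmx2 and Bub3 with Ebf3 (5.76 Mb, 41.3), and the Bmi1 region with Lmx1b (14.9 Mb, 21.4). At Nr2f2 (O/E 24.3) and at Bora, Dis3 and Pibf1 (24.9) the other anchor held no gene start. The highest value among these 10, 102 for a 33.3 Mb loop between Wtap and Lrrc73, rested on 22 contacts where 0.216 was expected.

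Among the 10 gained loops with the highest O/E at a gene start, chosen in the same way, none had a gene of those lists. At 5 of them the gene belonged to a family of near-identical copies, Rnase2a (O/E 22.2), Klra4 (20.6), Tdpoz2 (11.6), Vmn2r29 (10.3) and Tdpoz3 (9.22), where reads can be placed on the wrong copy, and these are uncertain. The other 5 lay at Pld4 with Clba1 (7.66), Arrdc3 (6.07), Csn3 (6.02), Gm4894 with Ttc12 (5.56) and Chd1 (5.54). Of the 10, 9 were shorter than 1 Mb.

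A start of a protein-coding gene lay at an anchor of a lost loop for 2277 of 21900 genes (10.4%), of a gained loop for 2014 (9.20%), and of a matched loop for 1497 (6.84%). Both a lost and a gained loop were found at 387 genes, which is 17.0% of the first group and 19.2% of the second. Neighbouring genes often shared an anchor, so genes of a cluster were not independent. Single genes carried up to 9 lost loops but at most 4 gained loops, and 68 genes had 5 or more lost loops while 48 had 3 or more gained loops.

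**Figure D3:**
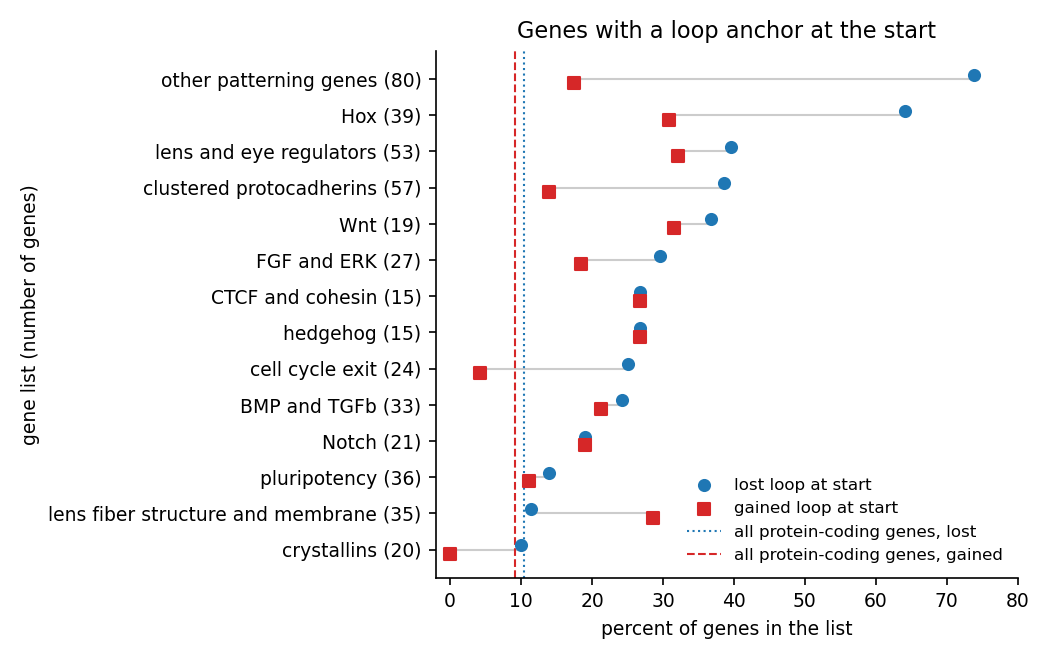
Percent of the genes in each list (x axis) with a lost loop (blue circles) or a gained loop (red squares) at the start, for 14 gene lists with the number of genes in brackets (y axis); vertical lines give the share of all protein-coding genes, 10.4% for lost and 9.20% for gained loops. The patterning and Hox lists have the highest lost shares, 73.8% and 64.1%, and the fiber structure list has a gained share of 28.6% against a lost share of 11.4%.

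Among the 14 lists, which were chosen with earlier results of these data known, patterning genes had lost loops most often. Of 80 homeobox, T-box and Gata genes outside the Hox clusters, which specify regions and organs of the embryo, 59 (73.8%) had a lost loop at the start, against 10.4% of all genes, and 14 (17.5%) had a gained loop, against 9.20%. Their 174 lost loops included 82 above 3 Mb and 20 with a list gene at both anchors, whereas their 15 gained loops included none of either. At 12 genes both kinds were present. Genes with no lost loop included Dlx3, Gsc, Pax5, Pax8, Tbx5 and Gata1.

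Lmx1b, which patterns the dorsal limb and midbrain, had 9 lost loops of 2450 to 41050 kb, all with anchors of 25 kb. The strongest by count reached Dlx1 and Dlx2 (37.9 Mb, 58 contacts, O/E 14.1), the Hoxd cluster (41.0 Mb, 45 contacts, O/E 15.8) and the anchor of Bmi1, Spag6 and Gm46725 (42 contacts). A single loop of this gene, 160 kb long, was matched, with an O/E of 2.59 at 10 kb anchors in ES cells and 2.14 at 25 kb anchors in fiber cells. Pitx1, a hindlimb and pituitary regulator, had 9 lost loops, of which the one to Foxd1 spanned 42.5 Mb with 39 contacts and an O/E of 13.2. Nrn1, which encodes a neuronal membrane protein and is on none of the lists, had 9 lost loops of 440 to 11925 kb, among them loops to Foxf2 (O/E 19.7), Tfap2a (20.3) and Barx1 (22.1). Skida1, Uncx and Vax2 were tied with these genes at 9 lost loops.

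Genes of the 4 Hox clusters set position along the body axis. A lost loop was found in 25 of 39 cases (64.1%), a gained loop in 12 (30.8%) and a matched loop in 19 (48.7%). Over all genes these shares were 10.4%, 9.20% and 6.84%. The Hox clusters shared anchors, so that 25 lost and 8 gained loops accounted for all of the lost and gained cases. Of the lost loops 13 exceeded 3 Mb, and of the gained loops none did. An anchor holding Hoxd9 to Hoxd12 had lost loops to Lmx1b, Lhx2, the Nr4a2 region, Wt1, Pax6 and Meis2 that were 17575 to 41375 kb long. The Hoxb6 to Hoxb9 anchor reached Cbx2 and Cbx8, which encode Polycomb subunits, over 22750 kb with 74 contacts and an O/E of 4.17. Gained Hox loops ran from the clusters to sites 190 to 1110 kb away, with O/E values from 2.29 to 4.51.

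Lens and eye regulators were found at both kinds of loops. Of 53 genes, 21 (39.6%, against 10.4% of all genes) had a lost loop, 17 (32.1%, against 9.20%) a gained loop and 6 both. Of their 74 lost loops 32 were above 3 Mb, and of their 25 gained loops none was, the medians being 2025 and 440 kb. Vax2, a regulator of the ventral eye, had 9 lost loops, including one to the Hoxa cluster (31475 kb, 79 contacts, O/E 10.0), and had no fiber loop at its start. Lhx2, needed for the optic vesicle, had 9 lost loops and no fiber loop at its start. Prox1, which drives fiber elongation and crystallin expression, had 5 lost loops and no fiber loop at its start. The paper describes a contact downstream at the Prox1 locus in fiber cells. Tfap2a, needed for early lens formation, and Pax2, a gene of the optic stalk, had 7 lost loops each. At Six3, which is upstream of Pax6 in lens induction, a 65 kb loop to Six2 had 122 contacts in ES cells and an O/E of 9.24, and a 440 kb loop with an O/E of 2.88 was gained.

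Maf and Hif1a had gained loops and no ES cell loop at their starts. Maf encodes a transcription factor of crystallin genes, and its start carried 4 gained loops of 325, 440, 650 and 725 kb, all to one side (from chr8:115700001). Their observed counts were 170, 42, 161 and 119 and their O/E values 2.30, 3.35, 2.52 and 2.20, and 3 of the 4 were also listed in lens epithelium within 25 kb. Hif1a, the oxygen-responsive transcription factor of the avascular lens, had gained loops of 190 kb (O/E 3.87), 125 kb (1.89) and 60.0 kb (4.19). Etv1, an effector of FGF signals, had 2 gained loops (O/E 2.53 and 2.16). Eya1, Tfap2b, Rxra, Mab21l1, Mab21l2, Eya3 and Zeb2 each had 1 gained and no lost loop.

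Of 35 genes of fiber structure, 10 (28.6%, against 9.20% of all genes) had a gained loop and 4 (11.4%, against 10.4%) a lost loop. Only gained loops were found at 7. These counts changed with the anchor rule, as did those over all genes. Without 25 kb anchors 5 genes had a gained and 4 a lost loop, against 766 and 1513 of all 21900 genes. With the anchor midpoint in the start window they were 0 and 2, against 167 and 316 of all genes. Such small counts give no order. Bfsp1, which encodes the beaded filament protein filensin, had no ES cell loop at its start. It had gained loops of 600 kb (85 contacts, O/E 2.18) and 120 kb (48 contacts, O/E 2.47). Cdh2, which encodes N-cadherin, had 2, of 590 kb (O/E 4.20) and 175 kb (O/E 2.56). Vim, the gene of vimentin, had a gained loop of 175 kb (O/E 1.90) besides a matched one of 280 kb. Col4a1 and Col4a2, which share a start region and encode collagen of the lens capsule, had both lost and gained loops.

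Among 20 crystallin genes, Cryba2 and Crym had a lost loop (10%, against 10.4% of all genes) and none had a gained loop (against 9.20%). Crym and Crygs had matched loops, and Crybb2 and Crybg3 had intermediate ones in the ES cell list. Cryba2 had 6 lost loops, among them loops to Cdk5r2, Speg, Lhx4, Ihh and Pax3, and the one to Pax3 spanned 3300 kb with 29 contacts and an O/E of 5.37. In the 3 loops with 25 kb anchors the start of Fev lay in the same anchor, and the contacts of the 2 genes cannot be told apart there, while in the 3 with narrower anchors Cryba2 was the only gene starting in its anchor. Protocadherin genes, whose neuronal clusters hold near-identical copies, had a lost loop in 22 of 57 cases (38.6%) and a gained loop in 8 (14.0%), but these came from 9 and 2 loops.

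Signalling genes fell on both sides. Each list had shares above those of all genes, which were 10.4% for lost and 9.20% for gained loops. In the FGF and ERK list 8 of 27 genes (29.6%) had a lost loop and 5 (18.5%) a gained loop. The ligand gene Fgf18 had 2 gained loops (O/E 3.69 and 2.20), the feedback inhibitor Spry2 had 2 (2.79 and 2.37), and the receptor gene Fgfr2 had 2, of 100 kb (2.50) and 200 kb (2.93). Receptor gene Fgfr3 had 3 lost loops and Fgf9 had 2. For BMP and TGFb, 8 of 33 genes (24.2%) were at lost and 7 (21.2%) at gained loops, with Bmp4 among the gained (310 kb, O/E 3.71). For Wnt the counts were 7 and 6 of 19, for Notch 4 and 4 of 21, and for hedgehog 4 and 4 of 15. Jag1, a Notch ligand gene required in the lens, had gained loops of 820 kb (O/E 3.68) and 610 kb (4.60), and Gli3, a transcription factor of the hedgehog pathway, had gained loops of 800 kb (3.85) and 250 kb (2.10).

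Pluripotency genes were close to the background in number. Lost loops were found at 5 of 36 (13.9%) and gained loops at 4 (11.1%), against 10.4% and 9.20% of all genes. Sox2, which is active in ES cells and in the early lens, had lost loops of 110 kb (50 contacts, O/E 6.22) and 475 kb (2.30), gained loops of 400 kb (2.62) and 325 kb (2.20), and a matched loop of 840 kb whose O/E was 4.22 in ES cells and 4.28 in fiber cells. Myc had 4 lost loops of 50 to 1675 kb and 4 gained loops of 825 to 1750 kb. The start of Pou5f1 had no loop in either list. Among 24 genes of cell cycle exit, 6 (25%) had lost loops and 1 (4.17%) a gained loop, and the cell cycle inhibitor gene Cdkn2a had 4 lost loops of 8475 to 26650 kb, to Dmrta2, Foxd2, Dmbx1 and a site with no gene start. Of 15 CTCF and cohesin genes, 4 (26.7%) had a lost and 4 (26.7%) a gained loop.

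Matched loops could be compared directly in 2924 one-to-one pairs, of which 1654 had anchors of equal width, and 1652 of these gave a ratio. The median log2 ratio of O/E, fiber over ES cells, was 0.09 (0.07 to 0.10, by order statistics), or 1.06-fold, and 1010 pairs (61.1%) were higher in fiber cells. The SD over pairs was 0.36, while the counting error of a single pair had a median half-width of 0.58, so most single pairs did not differ beyond counting error. The interval left out 0 in 184 pairs, 116 higher and 68 lower in fiber cells. A 1.5-fold higher O/E in fiber cells was found in 89 pairs (5.39%) and a 1.5-fold lower one in 79 (4.78%). These counts were 235 and 415 over all one-to-one pairs, whatever their width, and 20 and 7 among pairs of equal width with at least 50 contacts in both lists. The median was 0.01 at 5 kb anchors, 0.14 at 10 kb and 0.10 at 25 kb. Over all pairs, whatever their width, it was -0.03, and fiber anchors were the wider in 992 pairs and ES anchors in 278.

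**Figure D4:**
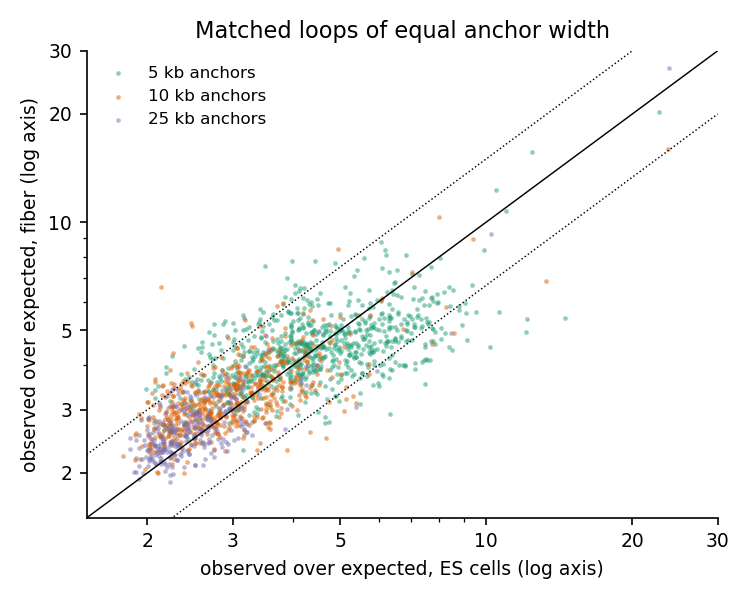
Observed over expected contacts in fiber cells (y axis, log) against ES cells (x axis, log) for the 1652 matched loops of equal anchor width, coloured by width; the solid line marks equality and the dotted lines a 1.5-fold difference, and 7 pairs above 3 Mb lie outside the axes. Most points lie between the dotted lines, with 89 pairs above and 79 below them when those outside the axes are counted.

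The largest differences higher in fiber cells were at Cstdc6 and Csta2, cystatin genes of a multigene cluster (3.08-fold, with 6.57 in fiber cells), at a gene-free 40 kb loop on chromosome 8 (O/E 3.49 in ES cells and 7.56 in fiber cells), on chromosome 14 (2.46 and 5.25), at Zfp729a with Zfp738 (2.48 and 5.13), and at a 210 kb loop with 1 anchor in Cux2 (2.26 and 4.32, log2 ratio 0.93 with interval 0.50 to 1.36). Repeated gene families make the first and the Zfp pair uncertain. The chromosome 14 loop is uncertain too, since 1 anchor adjoins the Rnase2a anchor named above. In turn, contacts numbered 50, 31, 38, 44 and 94 in ES cells and 27, 33, 25, 20 and 80 in fiber cells. Expected counts were 23.5, 8.88, 15.5, 17.8 and 41.6 in ES cells and 4.11, 4.36, 4.76, 3.90 and 18.5 in fiber cells. Expected counts were thus lower in fiber cells at each loop, while contacts were higher only on chromosome 8. Of the 5 largest differences lower in fiber cells, 3 were loops of 16160 kb or more with an expected count below 1. Among these, the loop from chr17:39845001-39850000, in no protein-coding gene, to Mpnd and Stap2 had O/E values of 2066 and 570. It had 263 and 160 contacts where 0.127 and 0.281 were expected. The placing of its reads was not tested. The remaining 2 of the 5 were shorter. An 80 kb loop had an anchor in Krt78, a keratin gene (14.5 and 5.41). A 135 kb loop had an anchor in Igfbp2, which encodes a binding protein of insulin-like growth factors (10.2 and 4.49).

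Several developmental regulators kept a loop at the same place with a lower O/E in fiber cells. A 140 kb loop at Meis1, a cofactor of Hox and Pax6, had 155 contacts and an O/E of 12.1 in ES cells and 40 contacts and 5.37 in fiber cells (log2 ratio -1.17, -1.67 to -0.67). A 555 kb loop between Irx3 and Irx5, neural and cardiac homeobox genes, had O/E values of 12.1 and 4.93 (-1.29, -2.03 to -0.55). For the Meis2 loop of 205 kb they were 9.12 and 4.69 (-0.96, -1.54 to -0.37), and for Wnt9a, a Wnt ligand gene, 7.65 and 4.13 (-0.89, -1.53 to -0.25). The O/E was higher in fiber cells at loops of Sufu, a hedgehog inhibitor (2.10 and 3.49), and Fgf8 (2.76 and 3.94, log2 ratio 0.51, 0.06 to 0.96). Their contacts were not more numerous in fiber cells, with 55 in ES cells and 39 in fiber cells for Sufu and 79 and 77 for Fgf8. Over lists, the median log2 ratio was -0.26 in 6 Hox pairs, -0.13 in 5 lens and eye regulator pairs and 0.08 in 9 other patterning pairs, against 0.09 in all pairs.

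CTCF binding was available for lens cells alone, with 23868 peaks in fiber cells, and no CTCF list of ES cells was analysed here. Both anchors overlapped a fiber peak in 44.8% of matched fiber loops (43.0 to 46.6), 36.6% of gained loops (35 to 38.1) and 22.5% of lost loops (21.3 to 23.7), and neither did in 12.4%, 19.8% and 33.3%. Wider anchors overlap more peaks, and at 10 kb anchors the shares with both were 43.2%, 28.2% and 21.7%. At 5 kb anchors the gained and lost shares were 22.9% (17.5 to 29.4) and 21.6% (19.6 to 23.8), with overlapping intervals, and the matched share was 38.9%. Of the lost loops above 3 Mb, 18.0% had a fiber peak at both anchors and 35.9% at neither.

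TADs, the self-contacting blocks within which most enhancers find their genes, were matched when both ends lay within 25 kb. This paired 1183 TADs, which is 32.8% of 3604 in ES cells (31.3 to 34.4) and 44.8% of 2641 in fiber cells (42.9 to 46.7). The share was higher in fiber cells on 20 of 20 chromosomes, as follows from the shorter list. Around the limit, 117 ES cell TADs differed by 20 to 25 kb and 95 by 25 to 30 kb. Both ends were identical in 80 pairs (6.76%). The ES cell TAD was the larger in 726 pairs and the fiber TAD in 310, with a median difference, fiber minus ES cells, of -5 kb.

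**Figure D5:**
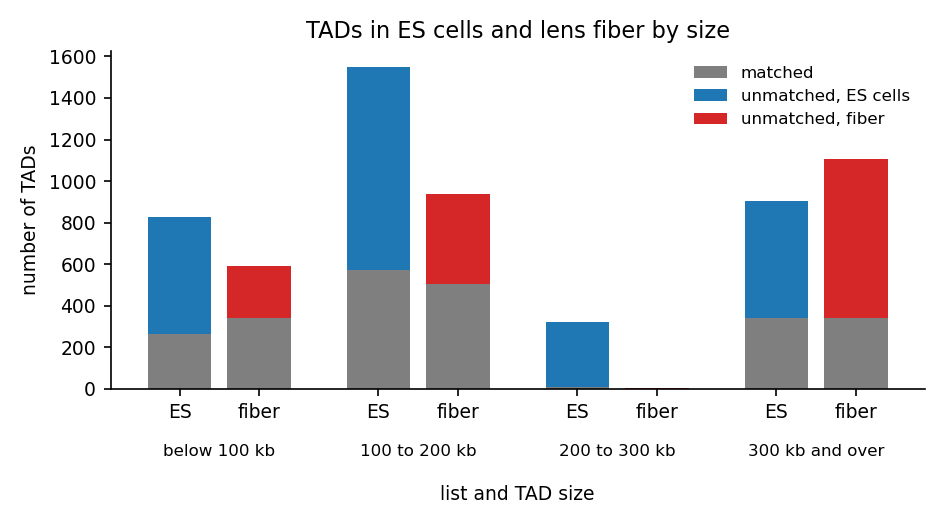
Number of TADs (y axis) in ES cells and lens fiber by size (x axis), stacked as matched and unmatched; each bar is 1 merged list. Matched TADs made up 37.7% of ES cell TADs of 300 kb and over and 30.9% of those in fiber cells, and 7 of 320 ES cell TADs of 200 to 300 kb were matched.

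Below 100 kb, 32.0% of ES cell and 57.2% of fiber TADs were matched, and from 100 to 200 kb 36.8% and 53.5%. From 300 kb upwards the order turned, with 37.7% of ES cell and 30.9% of fiber TADs. The class of 200 to 300 kb held 320 ES cell TADs and 3 fiber TADs, a gap seen across the lens lists whose cause was not tested, and 7 of the 320 were matched. Of the 2421 unmatched ES cell TADs, 47.1% shared 1 end with a fiber TAD, 47.5% shared none, and 21.5% lay inside a larger fiber TAD. Of the 1458 unmatched fiber TADs, 55.7% shared 1 end, 34.3% shared none, and 93 held 2 or more ES cell TADs.

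Matched TADs more often had a loop at their corner, that is, a loop that joins both ends. An ES cell loop did so for 65.7% of matched and 39.8% of unmatched ES cell TADs, and a fiber loop for 69.6% of matched and 50% of unmatched fiber TADs. Fiber CTCF peaks lay within 10 kb of both ends in 46.5% of matched fiber TADs, 32.3% of unmatched fiber TADs and 24.9% of unmatched ES cell TADs. Among TADs below 200 kb these shares were 50.9%, 38.2% and 27.2%. Read from the loops, 31.3% of matched fiber loops, 11.8% of gained loops and 13.5% of lost loops joined the ends of a TAD in their own list.

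Large unmatched TADs held few genes, some of them regulators. A fiber TAD of 2000 kb (chr12:26480001-28480000) held Sox11, a transcription factor of the eye and nervous system, as its only protein-coding gene. An ES cell TAD of 2020 kb (chr8:114445001-116465000) held Maf and Wwox, and 2 fiber TADs lay inside it. The 4 gained Maf loops described above lay within this ES cell TAD. In the fiber list, the midpoints of both anchors of each of these loops also lay within a single fiber TAD.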

How the data were processed

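Hi-C reads were aligned by the authors with BWA and processed with Juicer against mm10, and both replicates of a cell type were merged. Loops were called by the authors with HiCCUPS (juicer_tools 2.13.06) and TADs with Arrowhead, which gives coordinates only. Per the file headers, each deposited loop has a raw observed count, expected counts and FDR q-values. For each of the deposited CTCF peaks, the authors' MACS2 run gave fold enrichment, a score and −log10 p-values and q-values. Positions were used here, and q-values only in an alternative that kept peaks with a −log10 q-value above 3. The lists give no sequencing totals. Observed counts of the listed loops ran from 12 to 909 in ES cells and 13 to 1045 in fiber cells, but such ranges do not measure depth. Matched loops at 5 kb anchors had a median of 44 contacts in ES cells and 29 in fiber cells. These medians were 63.5 and 55 at 10 kb anchors, and 119 and 123 at 25 kb anchors. The paper describes the contact totals of the cell types as similar, with the fiber total above that of ES cells. It reports a larger share of contacts between chromosomes in fiber cells than in ES cells. The part of depth in the loop classes was not tested.

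Loops and TADs were matched as described, and one-to-one pairs were formed nearest first, each loop being used once. Python 3.11.15 was used with pandas 2.3.3, numpy 2.4.6, matplotlib 3.10.9 and scipy 1.17.1. Intervals at 95% were by Wilson for shares, by order statistics for medians, and exact Poisson for observed counts. The matching was tested on simulated data. A gene was at a loop when an anchor overlapped a window from 1 kb before to 100 bp after its start, and where no strand was known both gene ends were used (4408 of 21900 genes). Genes named are members of 14 lists, the 10 gained and 10 lost loops of highest O/E among those at a gene start with at least 20 contacts, the 5 largest differences of matched pairs each way, the 5 genes with most loops and the 5 longest loops of each class. Any other gene was picked for its values. The members and lists were chosen with earlier results of these data known. Alternatives concerned the tolerance, anchor width, loop length, list length, expected count, TAD size, gene window and CTCF list. Some results that need withheld items were left out.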

Additional observations from a re-analysis of the deposited data

How the results depend on the processing

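Matched ES cell and fiber loops made up 45.9% and 50.5% with a 25 kb tolerance, 24.0% and 26.3% when both anchors had to overlap, 23.2% and 63.4%, 19.5% and 18.8%, and 13.8% and 8.65% within lists of 5, 10 and 25 kb anchors, 35.7% of ES cell loops without loops over 3 Mb, and 35.9% and 35.9% with lists of equal number. With 10 kb anchors only there were 1814 lost and 1327 gained loops, and their median sizes were 190 and 170 kb. The median log2 ratio of matched loops was 0.02, 0.06 and 0.06 with the lower-left, horizontal and vertical expected counts, 0.10 for identical pixels, 0.15 with at least 50 contacts in both, and turned to -0.03 over all pairs of any width. Matched TADs of ES cells and fiber cells made up 19.3% and 26.4% within 10 kb, 41.4% and 55.7% within 50 kb, 27.9% and 30.8% at 200 kb or more, 34.7% and 47.4% with a reciprocal overlap of 80%, 41.0% of outermost fiber TADs, and 35.8% of ES cell TADs without those of 200 to 300 kb.

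Genes at lost and gained loops numbered 316 and 167 with the anchor midpoint in the start window, 4437 and 3769 over gene bodies, and 1513 and 766 without 25 kb anchors, and patterning genes at lost loops were 17 with the midpoint. Fiber structure genes at lost and gained loops were 2 and 0 with the midpoint, 11 and 20 over gene bodies, and 4 and 5 without 25 kb anchors. Peaks of lens epithelium gave CTCF at both anchors in 15.6% of gained and 19.1% of matched fiber loops, and 10 kb anchors gave 28.2% of gained loops. The causes of these shifts were not tested. Alternatives by gene start without loops over 3 Mb, by gene start with equal lists, by 10 kb anchors for lost and gained loops, by matched loops without those over 3 Mb and by TADs without 200 to 300 kb were chosen after seeing the data. Of all values under alternatives, 43 stayed within their interval or limit, 55 moved beyond it and 1 reversed in sign. The limit for a count was a 1.5-fold change. No paired analysis was possible because both replicates of a cell type were merged into 1 list, and for the same reason no replicate could be left out.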
